A study of Mus musculus with 30 samples.

Results

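The genes described here are the TAM receptors Mertk, Axl and Tyro3 and their ligands Gas6 and Pros1, followed across neutrophils, macrophages and microglia from the ischemic mouse brain. They were chosen by name, as the rows of the expression table annotated with exactly 1 of these symbols, and each of the 5 had 1 row. They are 5 of the 19479 genes that the array measured under a single symbol. The arrays came from male C57BL/6 mice of 8 to 10 weeks, either TREM1+/+ (WT) or TREM1-/- (KO). TREM1 is a myeloid cell receptor that amplifies inflammatory signals. All mice had the middle cerebral artery occluded for 45 min (MCAo, a stroke model), and cells were taken from the ischemic hemisphere 48 h after reperfusion, so no group is without ischemia. Cells were sorted by antibody as neutrophils (CD45 high, CD11b+, Ly6G+), macrophages (CD45 high, CD11b+, Ly6G-) and microglia (CD45 low, CD11b+), a gate for which the labels also give Ly6G+. The macrophage gate does not set macrophages apart from monocytes, and the monocyte receptor Ccr2 was high there (14.66 to 15.93). There were 4 arrays of WT neutrophils, 5 of KO neutrophils, 3 of WT macrophages, 6 of KO macrophages, 6 of WT microglia and 6 of KO microglia. The labels call them biological replicates without saying how many mice each holds, so the p-values measure the spread between these samples.

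TAM receptors are receptor tyrosine kinases by which phagocytes recognise dying cells. GAS6 and protein S, the product of Pros1, bind phosphatidylserine exposed on the dying cell with one end and the receptor with the other. GAS6 binds all of these receptors, while protein S binds MERTK and TYRO3. Both ligands need vitamin K-dependent gamma-carboxylation to bind the lipid. MERTK is the main receptor for engulfment in resting macrophages and is a known marker of microglia and tissue macrophages, AXL is known to rise in inflamed phagocytes, and TYRO3 in the brain is mostly a neuronal receptor. Signalling through these receptors also restrains cytokine production.

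Values are log2 of the deposited intensity, 1 transcript cluster per gene, and a difference of 1 is a 2-fold change. Levels are compared between groups for the same gene and never between genes, because each cluster has probes of its own. The median of all cluster means was 6.69, and values below it are in the lower part of the array's range. Intensity medians per array ran from 83.7 to 120. A set of 2015 clusters, here called broadly expressed, was chosen as bright in every macrophage and microglia array. Its median level was 12.42 to 12.91 in WT neutrophil arrays, 12.85 to 13.21 in KO neutrophil arrays and 13.26 to 13.49 in macrophage or microglia arrays. Neutrophil arrays had no part in that choice, so their lower level can follow from it. WT neutrophil arrays resembled each other least, with correlations of 0.9304 to 0.9769 against 0.9697 to 0.9895 within the other groups, and WT neutrophil 4 had the highest mean of cartilage markers (9.58, where the rest of its group had 6.57 to 7.13). The labels were borne out by marker means. The neutrophil mean was 12.12 to 15.44 in neutrophil arrays and 5.89 to 8.57 elsewhere. The monocyte and macrophage mean was 14.68 to 15.07 in macrophage arrays and 9.44 to 13.04 elsewhere. The microglia mean was 14.32 to 15.34 in microglia arrays and 10.15 to 11.94 elsewhere. Single markers were less confined. The neutrophil marker S100a8 was 12.04 in KO microglia 2, against 3.89 to 9.15 in the other microglia arrays. The microglia marker P2ry12 was 13.21 to 13.88 in WT neutrophils and 11.98 to 12.75 in macrophages. Trem1 was 17.20 ± 0.29 (SD, n = 4) in WT and 15.98 ± 0.51 (n = 5) in KO neutrophils, a difference of -1.22 (SE 0.41, adjusted p = 0.0361). Since the deleted part of Trem1 is not stated, this does not check the genotype.

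The upstream sequences of Mertk, Gas6 and Pros1 are shown because these genes shared 1 pattern across cell types: each was brightest in microglia and higher in KO than in WT neutrophils. Each run is the 250 bases before the annotated gene start, 5′ to 3′ on the gene's strand, from RefSeq on GRCm38.p6. The stretches are chr2:128698665-128698914 on the plus strand for Mertk, chr8:13494536-13494785 on the minus strand for Gas6 and chr16:62854057-62854306 on the plus strand for Pros1. Capitals mark matches to the motifs named after the sequences, on either strand.
Mertk: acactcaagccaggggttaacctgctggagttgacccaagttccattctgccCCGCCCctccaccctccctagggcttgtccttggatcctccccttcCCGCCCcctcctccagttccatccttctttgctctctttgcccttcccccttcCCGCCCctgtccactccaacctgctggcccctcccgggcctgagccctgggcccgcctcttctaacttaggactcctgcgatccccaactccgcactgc
Gas6: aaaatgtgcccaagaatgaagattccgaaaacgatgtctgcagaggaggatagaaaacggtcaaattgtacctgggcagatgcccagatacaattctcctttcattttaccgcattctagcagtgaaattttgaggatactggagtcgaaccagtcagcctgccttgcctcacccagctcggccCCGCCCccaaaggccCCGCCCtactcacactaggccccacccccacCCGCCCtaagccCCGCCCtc
Pros1: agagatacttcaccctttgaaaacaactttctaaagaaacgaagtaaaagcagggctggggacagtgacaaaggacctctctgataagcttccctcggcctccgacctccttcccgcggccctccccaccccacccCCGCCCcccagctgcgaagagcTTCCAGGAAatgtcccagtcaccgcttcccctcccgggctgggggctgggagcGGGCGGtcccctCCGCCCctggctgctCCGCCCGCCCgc

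The windows were rich in G and C, at 63.6% for Mertk, 54.8% for Gas6 and 64.4% for Pros1, against a median of 52.4% over 32841 windows of the same length. The Sp1 box GGGCGG, read on the other strand as CCGCCC, matched 3 times upstream of Mertk, 4 times upstream of Gas6 and 5 times upstream of Pros1, where a pair of matches overlaps. It is common, being found in 32.7% of all windows. Pros1 also held 1 match to the STAT motif TTCNNNGAA, found in 7.02% of windows. None of the 3 windows matched the PU.1 core GAGGAA (23.3% of windows), the AP-1 site TGANTCA (6.75%) or the LXR direct repeat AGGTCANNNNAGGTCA (0.0152%). These are matches of letters, and binding was not measured.

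Mertk (TC0200001935.mm.2, chr2:128698915-128803162), the main receptor for engulfment among them, separated WT neutrophils from every other group. WT neutrophil arrays 1 to 4 were at 10.76, 9.93, 8.43 and 8.71, and KO neutrophil arrays 1 to 5 were at 13.18, 11.90, 13.05, 12.80 and 11.99. Every KO neutrophil array was above every WT neutrophil array. WT macrophages were at 11.84, 13.30 and 12.47, and the 6 KO macrophage arrays ran from 12.22 through a median of 12.55 to 13.04. The macrophage values therefore lay in the same range as those of KO neutrophils. Microglia were highest, from 14.12 through 14.41 to 14.60 in WT and from 13.28 through 14.10 to 14.88 in KO.

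Axl (TC0700002644.mm.2, chr7:25756500-25788924), the receptor that binds GAS6 alone, had its highest levels in macrophages rather than microglia. WT macrophages were at 11.78, 10.85 and 12.16, and KO macrophages ran from 11.54 through 12.11 to 12.81. WT microglia ran from 8.72 through 10.20 to 10.32 and KO microglia from 8.74 through 10.45 to 10.79, in both cases with low arrays below a narrower bulk. WT neutrophil arrays, at 6.69, 6.53, 6.31 and 6.25, were at or below the median of all cluster means. KO neutrophil arrays were all above them but spread widely, at 9.10, 8.72, 9.37, 6.91 and 7.65.

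Tyro3 (TC0200001781.mm.2, chr2:119797740-119818104) was dim everywhere. Its values were 4.05, 4.54, 4.58 and 4.66 in WT neutrophils, 4.14, 4.30, 4.27, 4.21 and 4.55 in KO neutrophils and 4.03, 4.56 and 4.15 in WT macrophages. KO macrophages ran from 4.00 through 4.29 to 4.77, WT microglia from 4.40 through 4.61 to 4.89 and KO microglia from 4.52 through 4.76 to 5.37. All 30 arrays were below 6.69, and its 6 group means spanned only 0.67, against 4.92 for Mertk and 5.69 for Axl.

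Gas6 (TC0800001737.mm.2, chr8:13465374-13494535), the ligand of all TAM receptors, was brightest in microglia, which ran from 12 through 12.62 to 13.15 in WT and from 11.43 through 12.41 to 12.79 in KO. It was low and uneven in the other WT cells. WT neutrophils were at 9.19, 5.30, 7.20 and 8.40 and WT macrophages at 5.51, 8.11 and 8.62, so within each of these groups 1 array was far below the highest. KO neutrophils, at 9.95, 9.73, 9.52, 9.43 and 8.45, were closer together, and WT neutrophil 1 overlapped them. KO macrophages ran from 7.41 through 7.97 to 9.37.

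Pros1 (TC1600000788.mm.2, chr16:62854307-62929346), which encodes protein S, a plasma anticoagulant as well as a TAM ligand, had the widest span of group means, 6.24. Microglia ran from 13.63 through 13.91 to 14.14 in WT and from 13.71 through 14.01 to 14.14 in KO, with little spread. WT macrophages were at 9.54, 9.33 and 9.32 and KO macrophages ran from 9.33 through 9.71 to 10.17. In WT neutrophils the arrays were at 9.44, 6.43, 8.19 and 6.83, and in KO neutrophils at 9.70, 10.21, 9.40, 7.91 and 8.13. The neutrophil groups overlapped, since WT neutrophil 1 exceeded 3 of the KO arrays.

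**Figure D1:**
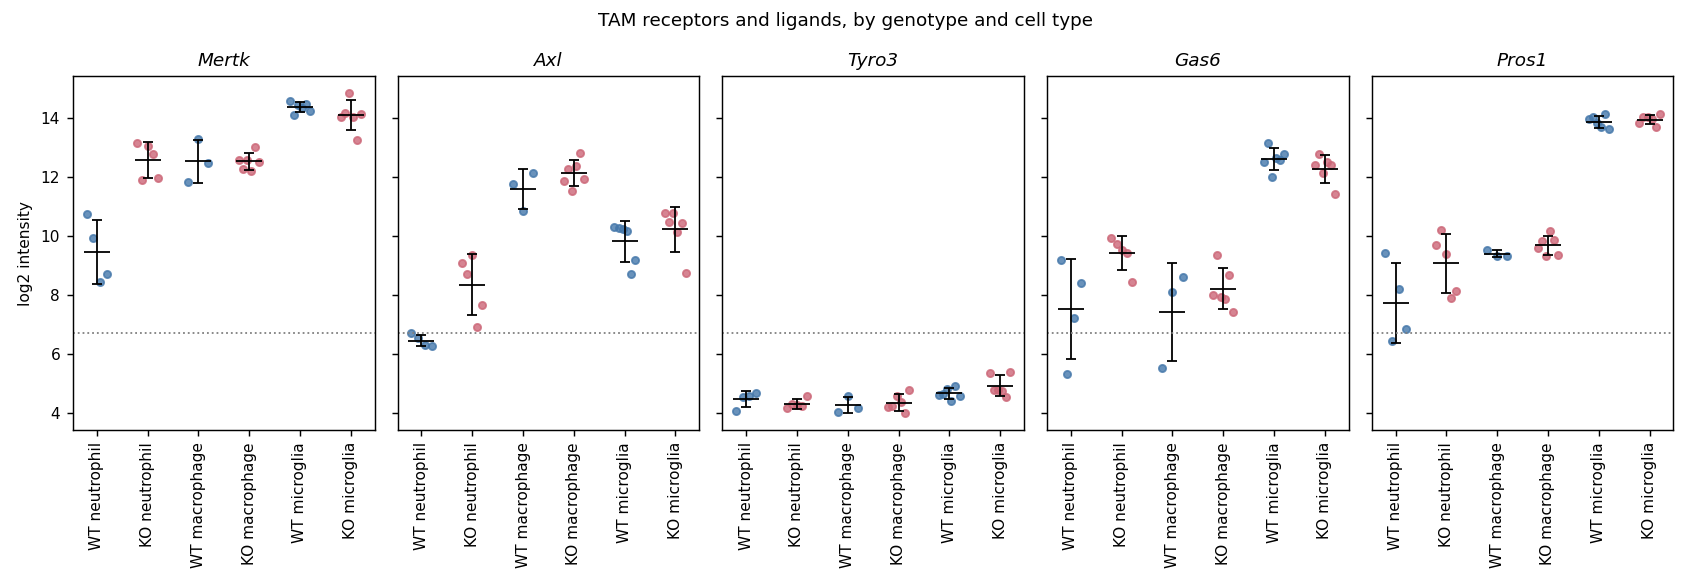
Log2 intensity (y axis) of Mertk, Axl, Tyro3, Gas6 and Pros1 in each array, by genotype and cell type (x axis), with WT arrays in blue and KO arrays in red. Black marks give the group mean ± SD, and the grey dotted line is the median of all cluster means (6.69). Mertk, Gas6 and Pros1 are highest in microglia, Axl is highest in macrophages, and all Tyro3 values are below the line.

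WT microglia had more Mertk, Gas6 and Pros1 than WT macrophages, and WT macrophages had more Axl than WT microglia. Gas6 was 36.9-fold lower in macrophages than in microglia (log2 difference -5.21, SE 0.59, adjusted p = 3.8e-08), Pros1 was 22.5-fold lower (-4.49, SE 0.44, adjusted p = 1.87e-09) and Mertk was 3.58-fold lower (-1.84, SE 0.38, adjusted p = 0.000353). Axl was 3.43-fold higher in macrophages (1.78, SE 0.46, adjusted p = 0.00295). Arrays of these groups did not overlap for any of these 4 genes, and Tyro3 did not pass (-0.40, SE 0.19, adjusted p = 0.104). Thus 4 of 5 members passed in this comparison, in which 37.5% of all clusters passed, with 27.9% lower and 9.62% higher in macrophages.

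WT neutrophils had less Mertk and Axl than WT macrophages, by 8.46-fold (-3.08, SE 0.41, adjusted p = 8.37e-07) and 35.5-fold (-5.15, SE 0.50, adjusted p = 2.75e-09). Pros1 was 3.2-fold lower in WT neutrophils (-1.68, SE 0.47, adjusted p = 0.00438), with overlapping arrays. Gas6 did not pass (0.11, 95% interval -1.199 to 1.424, adjusted p = 0.894), nor did Tyro3 (0.21, adjusted p = 0.408), so 3 of 5 members passed where 51.6% of all clusters did and 22% were lower in neutrophils. Against WT microglia, WT neutrophils were lower in 4 of 5 members (background 54.3%, with 32.3% lower): Pros1 by 72-fold, Gas6 by 34.1-fold, Mertk by 30.3-fold and Axl by 10.4-fold, with adjusted p from 1.87e-13 to 7.5e-08. These cell type comparisons share their groups, so each low value in WT neutrophils counts in both. In bulk RNA, fewer cells expressing a gene and less of its RNA per cell cannot be told apart. With the level of broadly expressed clusters as a covariate, the calls of Mertk (-1.46, adjusted p = 0.211) and Pros1 (-0.008, adjusted p = 0.997) against macrophages ended. That level did not overlap between WT neutrophils (12.42 to 12.91) and WT macrophages (13.29 to 13.47), so the fit cannot fully separate it from cell type. With only the 7 arrays compared, that of Pros1 ended as well (adjusted p = 0.0816).

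Between KO macrophages and KO microglia 5 of 5 members passed (background 43.3%), with Axl 3.75-fold higher in macrophages and Pros1 19.3-fold, Gas6 16.9-fold, Mertk 2.95-fold and Tyro3 1.49-fold lower. Mertk in KO neutrophils differed from KO macrophages by 0.05 (95% interval -0.624 to 0.718, adjusted p = 0.931), and Axl alone passed in this comparison (1 of 5, background 31.7%), at 13.8-fold lower (-3.78, SE 0.39, adjusted p = 1.5e-08). Gas6 was 1.21 higher in KO neutrophils (SE 0.51, adjusted p = 0.0702) and Pros1 0.63 lower (SE 0.38, adjusted p = 0.214), neither past the threshold. Gas6 did pass with only the arrays compared (adjusted p = 0.0132), with array weights (1.30, adjusted p = 0.0142), with the covariate (1.97, adjusted p = 0.0318), without KO neutrophil 5 (1.45, adjusted p = 0.0451) and without KO macrophage 2 (1.44, adjusted p = 0.0373).

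KO neutrophils were below KO microglia in 5 of 5 members (background 45%, with 32% lower): Pros1 29.7-fold, Gas6 7.31-fold, Axl 3.67-fold, Mertk 2.86-fold and Tyro3 1.54-fold lower. The Axl arrays of these groups overlapped. Mertk did not pass with the broad level as a covariate (-0.78, adjusted p = 0.124). For dim Tyro3, centring each array on its median ended the call against neutrophils (-0.36, adjusted p = 0.0682) and against macrophages (-0.21, adjusted p = 0.268), and reversed the uncalled sign between WT macrophages and microglia (0.003).

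**Figure D2:**
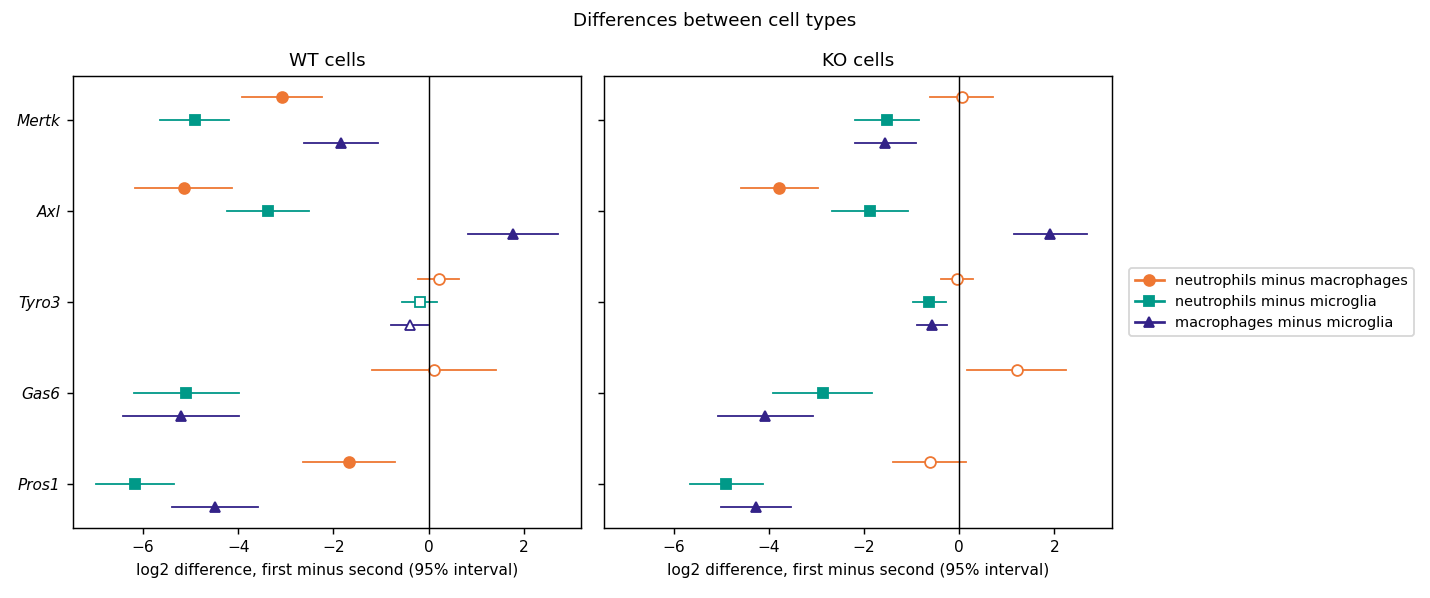
Log2 difference between cell types (x axis) for the 5 genes, in WT and in KO cells, with bars for the 95% interval. Filled points passed at an adjusted p under 0.05 and open points did not. The difference between neutrophils and macrophages in Mertk is -3.08 in WT and 0.05 in KO, and that between macrophages and microglia is -1.84 in WT and -1.56 in KO.

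From highest to lowest, the group means of Mertk were WT microglia (14.38 ± 0.17), KO microglia (14.10 ± 0.51), KO neutrophils (12.59 ± 0.60), KO macrophages (12.54 ± 0.29), WT macrophages (12.54 ± 0.73) and WT neutrophils (9.46 ± 1.09). Only the steps from KO microglia to KO neutrophils and from WT macrophages to WT neutrophils passed. For Axl the order was KO macrophages (12.13 ± 0.44), WT macrophages (11.60 ± 0.67), KO microglia (10.23 ± 0.77), WT microglia (9.82 ± 0.69), KO neutrophils (8.35 ± 1.04) and WT neutrophils (6.45 ± 0.20). Neighbouring genotypes of macrophages and of microglia did not differ beyond their spread. Each of the other steps passed, the smallest being 1.37 from WT macrophages to KO microglia (SE 0.46, adjusted p = 0.0193). Some steps, this one among them, change genotype and cell type together, and all were picked by the order of these means. Gas6 fell from WT microglia (12.62 ± 0.38) and KO microglia (12.29 ± 0.47) to KO neutrophils (9.42 ± 0.58), the only step that passed, followed by KO macrophages (8.21 ± 0.70), WT neutrophils (7.52 ± 1.69) and WT macrophages (7.41 ± 1.67). Pros1 ran from KO microglia (13.96 ± 0.16) and WT microglia (13.89 ± 0.20) to KO macrophages (9.69 ± 0.33), WT macrophages (9.40 ± 0.12), KO neutrophils (9.07 ± 1.01) and WT neutrophils (7.72 ± 1.37). Its steps from WT microglia to KO macrophages and from KO to WT neutrophils passed. No neighbours differed for Tyro3, whose means ran from 4.92 ± 0.36 in KO microglia to 4.25 ± 0.28 in WT macrophages.

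The comparison of KO with WT within a cell type asks what loss of TREM1 changes. In neutrophils, receptors and ligands were both higher in KO. Mertk was 8.75-fold higher (log2 difference 3.13, SE 0.36, adjusted p = 2.34e-06) and Axl 3.74-fold higher (1.90, SE 0.44, adjusted p = 0.00285), in each case with all 5 KO arrays above all WT arrays. Gas6 was 3.71-fold higher (1.89, SE 0.56, adjusted p = 0.0182) and Pros1 2.55-fold higher (1.35, SE 0.42, adjusted p = 0.0223), with all 5 KO arrays above the WT mean but overlapping groups. Tyro3 did not pass (-0.17, 95% interval -0.539 to 0.21, adjusted p = 0.544). So 4 of 5 members rose, in a comparison in which 19.9% of all clusters passed and 10.7% passed upward, and the median difference of all clusters was -0.125.

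These calls were not equally firm. Mertk passed with each array left out in turn (2.786 to 3.565), with only the neutrophil arrays fitted (adjusted p = 0.017) and with the broad level as a covariate (2.25, adjusted p = 0.00938). Axl passed without each array (1.649 to 2.265) but not with the covariate (1.66, adjusted p = 0.18). Gas6 lost its call without WT neutrophil 2 (1.15, adjusted p = 0.109), its lowest array, and without KO neutrophil 1 (1.76, adjusted p = 0.0503). It also lost it with the covariate (0.95, adjusted p = 0.681) and with only the neutrophil arrays (adjusted p = 0.118). Pros1 lost its call under those same settings (covariate 0.45, adjusted p = 0.824; only neutrophil arrays, adjusted p = 0.223). Its call also ended without WT neutrophil 2 (0.92, adjusted p = 0.113), WT neutrophil 4 (1.05, 0.111), KO neutrophil 1 (1.19, 0.0679), KO neutrophil 2 (1.06, 0.0711) or KO neutrophil 3 (1.27, 0.0503).

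**Figure D3:**
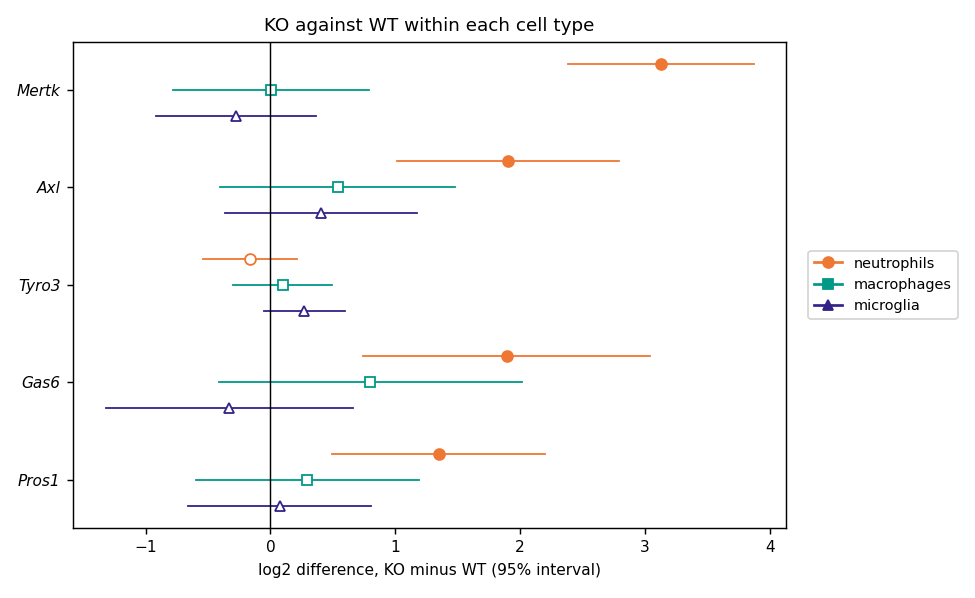
Log2 difference between KO and WT (x axis) for the 5 genes in neutrophils, macrophages and microglia, with bars for the 95% interval. Filled points passed at an adjusted p under 0.05. In neutrophils Mertk (3.13), Axl (1.90), Gas6 (1.89) and Pros1 (1.35) are filled, and all points for macrophages and microglia are open.

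Macrophages and microglia gave no call on genotype. In macrophages the differences were 0.002 for Mertk (95% interval -0.782 to 0.786), 0.54 for Axl (-0.402 to 1.477), 0.80 for Gas6 (-0.415 to 2.013), 0.30 for Pros1 (-0.6 to 1.194) and 0.10 for Tyro3 (-0.297 to 0.493). In microglia they were -0.28 for Mertk (-0.918 to 0.362), 0.41 for Axl (-0.361 to 1.173), -0.33 for Gas6 (-1.321 to 0.661), 0.07 for Pros1 (-0.66 to 0.805) and 0.27 for Tyro3 (-0.051 to 0.594). None of the 5 members passed with limma, and none had an unadjusted p under 0.05 in either cell type. Over all clusters 0.00452% passed in macrophages and 0% in microglia, with 1029 and 646 clusters at an unadjusted p under 0.05.

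Whether genotype acted differently from one cell type to the next was tested as well. For Mertk the change in neutrophils exceeded that in macrophages by 3.13 (SE 0.53, adjusted p = 0.00192) and that in microglia by 3.41 (SE 0.48, adjusted p = 0.000157). Mertk was the only member to pass in each (1 of 5, against 6.87% and 5.79% of all clusters). These tests share the neutrophil arrays. Gas6 differed by 1.09 (adjusted p = 0.411) and 2.22 (adjusted p = 0.0699), Axl by 1.37 (0.175) and 1.498 (0.113), and Pros1 by 1.05 (0.278) and 1.28 (0.157), so for these a difference between cell types was not shown. Mertk's excess over macrophages did not pass with the covariate (2.22, adjusted p = 0.115). Without WT neutrophil 1, Pros1 passed in both (1.62, adjusted p = 0.0369, and 1.85, adjusted p = 0.0114), and Gas6 passed against microglia (2.78, adjusted p = 0.0122). Gas6 also passed against microglia without KO neutrophil 5 (2.46, adjusted p = 0.0377) or with array weights (2.70, adjusted p = 0.0174), and Axl without KO neutrophil 4 (1.86, adjusted p = 0.0462). No member passed in the comparison of macrophages with microglia (0 of 5 with limma, background 0%, with 761 clusters at an unadjusted p under 0.05).

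Markers of other cell types moved with genotype in the neutrophil arrays, where 10.7% of all clusters were higher and 19.9% passed in either direction. Of 16 measured monocyte and macrophage markers, 8 were higher and 0 lower in KO neutrophils, and of 19 neutrophil markers 0 were higher and 7 lower. The mean of the monocyte and macrophage list lay between 11.94 and 12.62 for WT neutrophils, between 12.53 and 13.04 for KO neutrophils and between 14.68 and 15.07 for macrophages. Summed over the list, the log2 level was 17.87 to 18.19 in WT and 18.24 to 18.94 in KO neutrophils, and no marker on it was below 6.69 in every neutrophil array. The macrophage marker Adgre1 was 9.0 to 10.55 in WT and 11.55 to 12.19 in KO neutrophils, against 11.87 to 12.79 in macrophages, while the monocyte receptor Ccr2 was 7.52 to 9.96, 8.18 to 11.70 and 14.66 to 15.93. Of 12 markers of border-associated macrophages 6 were higher and 1 lower. Of 16 microglia markers 4 were higher and 3 lower. On that list C1qa rose by 1.39 (adjusted p = 0.0393). Its call ended without WT neutrophil 2, 3 or 4 or KO neutrophil 1, 2, 3 or 4 (adjusted p up to 0.127). C1qa also did not pass with only the neutrophil arrays (adjusted p = 0.219) or with the covariate (-0.167, adjusted p = 0.951). The Trem2 mean was 9.84 in WT and 12.87 in KO neutrophils. P2ry12 was 13.21 to 13.88 in WT and 11.78 to 13.41 in KO neutrophils. The microglia-restricted Tmem119 was at 7.39 to 8.05 in WT and 7.32 to 8.18 in KO neutrophils, against 10.99 to 13.75 in microglia. Sall1 was at 6.29 to 7.02 and 5.56 to 6.97, against 11.06 to 12.49. Outside the myeloid lists, 5 of 11 cartilage markers (median -0.84) and 4 of 9 pericyte and fibroblast markers (median -0.55) were lower in KO neutrophils and 0 were higher. The fibroblast gene Dcn was 11.88 to 16.94 in WT and 9.18 to 12.72 in KO neutrophils.

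Single arrays show how the members lay beside these measures. KO neutrophil 2 had the lowest monocyte and macrophage mean of the KO arrays (12.53) and a Ccr2 level of 8.18, with Mertk at 11.90, Axl at 8.72 and Pros1 at 10.21. KO neutrophil 4, with a marker mean of 12.81 and Ccr2 at 11.16, had Mertk at 12.80 but Axl at 6.91 and Pros1 at 7.91. WT neutrophils 2 and 3 had means of 12.60 and 12.62, within the KO range, with Mertk at 9.93 and 8.43. Their Adgre1, at 10.54 and 10.51, was below that of every KO neutrophil array (11.55 to 12.19). Their Ly6c2, a monocyte marker, was above it, at 13.19 and 13.22 against 10.40 to 12.66. A like mean of the list is therefore not a like level of its single markers. By the microglia list, KO neutrophil 2 had the highest mean of the neutrophil arrays (11.94) and the highest Pros1. WT neutrophil 2 had the lowest mean (10.50) and the lowest Gas6 and Pros1. Of the KO arrays, KO neutrophil 4 had the lowest mean (10.67), with their lowest Axl and Pros1 but not Mertk. WT neutrophil 1 had the highest WT mean (11.58), with Mertk still below every KO array. WT neutrophil 4, at 10.91, had lower Pros1 than WT neutrophil 3, at 10.86. For the level of broadly expressed clusters, WT neutrophil 1 had the highest value of the WT arrays (12.91) and also their highest Mertk, Axl, Gas6 and Pros1. KO neutrophil 5 had the lowest of the KO arrays (12.85), below WT neutrophil 1, with Mertk at 11.99 against 10.76 and Gas6 and Pros1 below that WT array. The part of these markers, and of the broad level, in the rise of the TAM genes was not tested.

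**Figure D4:**
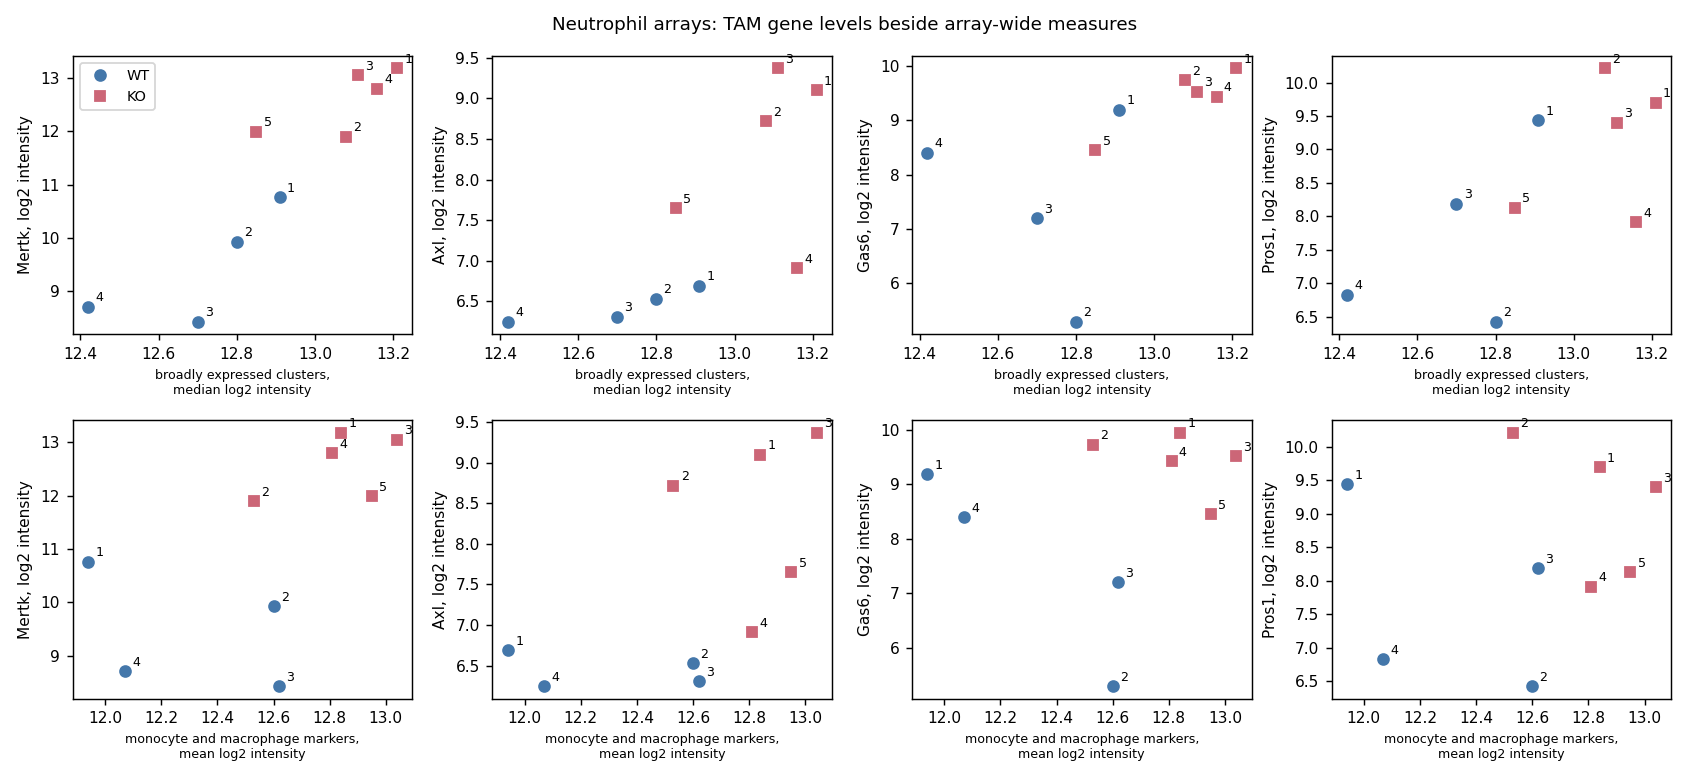
Log2 intensity of Mertk, Axl, Gas6 and Pros1 (y axis, 1 column per gene) in the 4 WT (blue) and 5 KO (red) neutrophil arrays, against the median level of broadly expressed clusters (upper row) and the mean of monocyte and macrophage markers (lower row), both in log2 units. Numbers are the replicates. At marker means near 12.6, WT neutrophils 2 and 3 have Mertk at 9.93 and 8.43 while KO neutrophil 2, at 12.53, has 11.90. Single markers differ between these arrays, with Adgre1 at 10.54 and 10.51 in the WT arrays and 11.55 in KO neutrophil 2.

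The other genes of the pathway were taken from 9 lists. Of the other ligands of MERTK 0 of 3 passed by limma in KO neutrophils, with Lgals3, which encodes galectin-3, at 0.85 (SE 0.44, adjusted p = 0.171), and Tulp1 and Tub at -0.30 and -0.20. Among 21 other phosphatidylserine receptors and bridging proteins, 7 were higher and 2 lower in KO neutrophils, with a median difference of 0.002, beside 10.7% of all clusters higher. The scavenger receptor Stab1 rose from 14.04 ± 0.68 to 15.63 ± 0.18 (adjusted p = 2.13e-05), the integrin subunit Itgb5 by 1.86 (SE 0.29, adjusted p = 6.21e-05), the endocytic receptor Lrp1 by 1.82 (SE 0.30, adjusted p = 0.000104) and C1qb, a chain of the complement protein C1q, by 2.70 (SE 0.48, adjusted p = 0.000258). With the covariate 3 of these 21 genes passed and with only the neutrophil arrays 5 did. Stab1, Itgb5 and Lrp1 passed under both, while C1qb did not pass with the covariate (1.00, adjusted p = 0.406).

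Regulators and targets of the LXR, PPAR and glucocorticoid receptors were higher in KO neutrophils at 6 of 11 measured genes and lower at 0. Their median was 1.05, where 10.7% of all clusters were higher. The glucocorticoid receptor gene Nr3c1 (-0.45, adjusted p = 0.0604) and its target Tsc22d3 (-1.14, adjusted p = 0.0501) pointed down, just short of passing. LXR and PPAR are lipid-sensing transcription factors known to induce Mertk in macrophages that have taken up dying cells. Nr1h3, which encodes LXR alpha, was 5.25 to 7.39 in WT and 8.71 to 10.01 in KO neutrophils, with no overlap, a rise of 2.94 (SE 0.37, adjusted p = 4.56e-06). Apoe, a lipid carrier and LXR target, rose by 2.46 (SE 0.40, adjusted p = 8.19e-05), Pparg by 1.79 (SE 0.33, adjusted p = 0.000325) and the cholesterol exporter Abcg1 by 1.17 (SE 0.27, adjusted p = 0.0031). With the covariate 1 gene of this list passed, Nr1h3 (1.96, adjusted p = 0.0205), and with only the neutrophil arrays 3 passed. Across cell types Nr1h3 did not have the pattern of Mertk: it was 11.25 ± 0.81 in WT macrophages and 5.98 ± 0.56 in WT microglia, 38.7-fold higher in macrophages (adjusted p = 4.89e-12). Apoe and Pparg in KO neutrophils, at 16.82 ± 0.60 and 7.21 ± 0.74, lay near their WT macrophage levels of 16.68 ± 0.59 and 8.01 ± 0.92.

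Genes that act after receptor engagement moved in both directions in KO neutrophils, with 29.4% of the engulfment list and 25% of the signalling list passing, beside 19.9% of all clusters. Of 17 genes of the engulfment machinery 3 were higher and 2 lower (median -0.03). The Rac activators Elmo2 and Dock1 rose by 1.195 (SE 0.26, adjusted p = 0.00184) and 1.31 (SE 0.29, adjusted p = 0.00231), and the autophagy proteins Map1lc3b and Map1lc3a fell by 0.69 (adjusted p = 0.00364) and 0.55 (adjusted p = 0.0414). Of 12 genes of TAM signalling and feedback 1 was higher, the phospholipase Plcg2 (1.09, SE 0.29, adjusted p = 0.0087), and 2 were lower, Socs3 (-0.54, adjusted p = 0.0277) and Socs1 (-0.51, adjusted p = 0.0436), cytokine signalling inhibitors whose means were below 6.69. Ifnar1, the interferon receptor subunit with which TAM receptors cooperate, did not pass (0.57, adjusted p = 0.0796). Without WT neutrophil 3 or 4, or KO neutrophil 1, 4 or 5, 3 engulfment genes passed. Of the signalling genes 1 passed without WT neutrophil 4, KO neutrophil 1 or KO neutrophil 3, and 5 passed without WT neutrophil 1. With the covariate none of the 8 calls in these 2 lists held, the smallest adjusted p being 0.07 for Socs3. The 1 gene of each list that passed there had not passed before, Dock2 (0.896, adjusted p = 0.0311, against 0.007) and Grb2 (-1.006, adjusted p = 0.0459, against 0.399), both named after their values were seen. With only the neutrophil arrays 0 passed by limma.

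Shedding and modification were measured through their enzymes. Adam17, the main protease that cleaves MERTK from the cell surface, was higher in KO neutrophils (12.07 ± 0.15 to 12.74 ± 0.37, difference 0.67, SE 0.15, adjusted p = 0.00315) and was the only one of 5 shedding genes to pass, a share of 20% beside the 19.9% of all clusters. Adam10, known for shedding AXL in mice, was at 0.39 (adjusted p = 0.394). Of 6 genes of gamma-carboxylation and the vitamin K cycle, Aifm2, a vitamin K reductase, alone passed (1.19, SE 0.19, adjusted p = 8.99e-05), from a dim 5.46 ± 0.24 in WT to 6.65 ± 0.18, and the carboxylase Ggcx was at 0.54 (adjusted p = 0.212). That is 16.7% of the list, below the share of all clusters. That list had 3 genes passing without WT neutrophil 4 and 2 without KO neutrophil 5. On the side of the dying cell, of 8 genes of phosphatidylserine exposure and do-not-eat signals 2 were higher and 1 lower, or 37.5%. The scramblase Ano6 rose by 1.23 (SE 0.30, adjusted p = 0.00436), the do-not-eat receptor Sirpa rose by 0.63 (SE 0.19, adjusted p = 0.0223) and its ligand Cd47 fell from 16.36 ± 0.36 to 15.40 ± 0.40 (adjusted p = 0.00193). With the covariate Cd47 passed (-1.495, adjusted p = 0.00365) but Adam17 (0.58, adjusted p = 0.184), Ano6 (0.44, adjusted p = 0.695) and Sirpa (0.27, adjusted p = 0.76) did not. With only the neutrophil arrays Adam17 (adjusted p = 0.086), Ano6 (0.114), Sirpa (0.142) and Cd47 (0.0528) did not pass. The call of Sirpa also ended without WT neutrophil 3 or 4 or KO neutrophil 1 or 4 (adjusted p up to 0.139). No gene of any of these lists passed between KO and WT macrophages or between KO and WT microglia with limma.

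**Figure D5:**
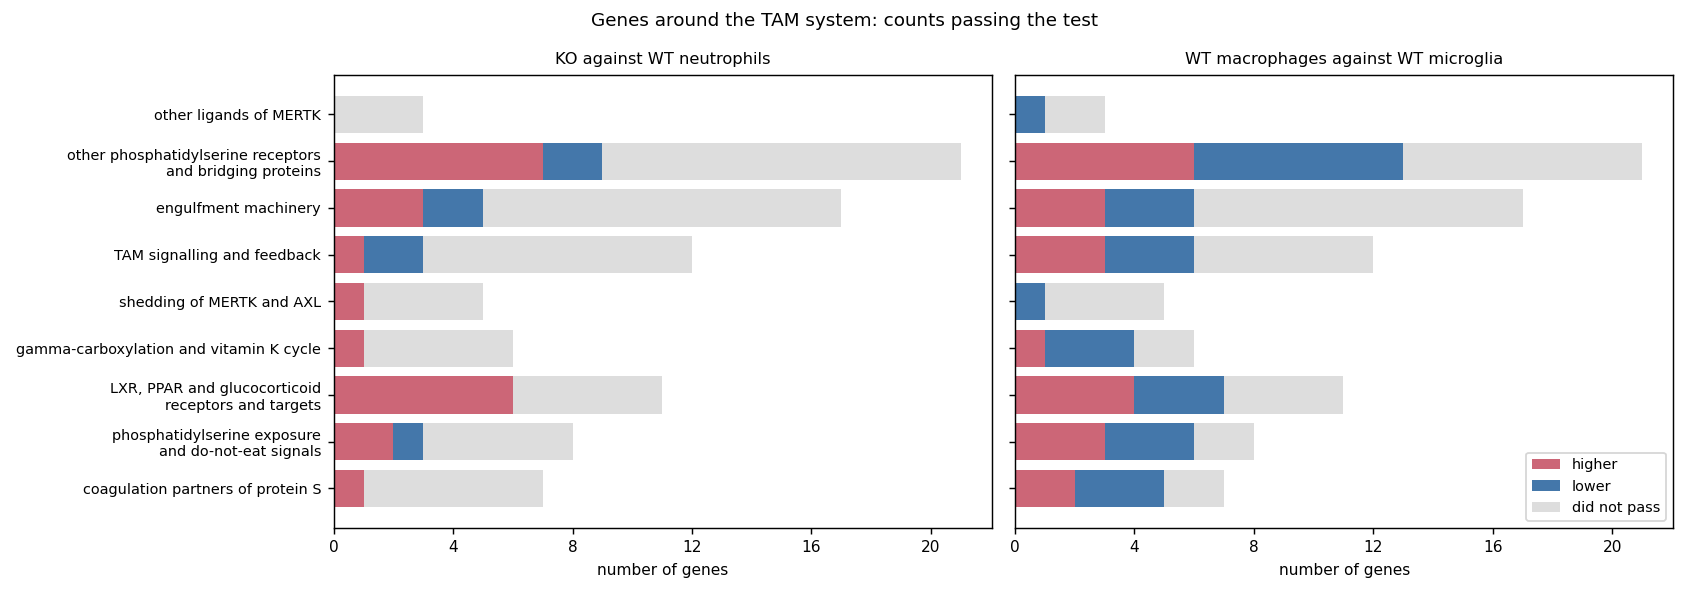
Number of measured genes (x axis) in each of the 9 pathway lists (y axis) that were higher, lower or not past an adjusted p of 0.05, in KO against WT neutrophils (left) and in WT macrophages against WT microglia (right). On the left the list of nuclear receptor regulators and targets has 6 of 11 genes higher and 0 lower, and the list of other phosphatidylserine receptors and bridging proteins has 7 of 21 higher and 2 lower.

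Several lists also held genes that differed between WT macrophages and WT microglia, where 37.5% of all clusters passed. Of the 21 phosphatidylserine receptors and bridging proteins 6 were higher and 7 lower in macrophages. Anxa1, which encodes annexin A1, was 310-fold higher (adjusted p = 2.08e-16) and Thbs1, the bridging protein thrombospondin-1, 160-fold higher (adjusted p = 3.89e-15), while the integrin subunit Itgb3 was 7.75-fold lower (adjusted p = 3.25e-10). Of the gamma-carboxylation genes 1 was higher, the reductase gene Aifm2 (3.61-fold, adjusted p = 2.03e-08), and 3 were lower. Vkorc1, the vitamin K reductase that warfarin inhibits, was 8.01-fold lower in macrophages (11.30 ± 0.24 against 14.30 ± 0.17, adjusted p = 5.52e-05). Ggcx was 1.98-fold lower (adjusted p = 0.0164). Both had the direction of the ligands, opposite to Aifm2. Of the nuclear receptor genes 4 were higher and 3 lower, of the 17 engulfment genes 3 and 3, and of the 12 signalling genes 3 and 3. The share was 35.3% for engulfment, 33.3% for other MERTK ligands and 20% for shedding, at or below that of all clusters. Pik3r1, a regulatory subunit of phosphoinositide 3-kinase, was 3.46-fold lower (adjusted p = 1.35e-07) and the kinase gene Akt1 3.34-fold higher (adjusted p = 0.00158).

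Genes most like each member were found by the root mean square (RMS) difference of the 6 group means after centring, among 18438 genes. Nearest to Mertk were Trem2 (RMS 0.205), Ppp5c (0.215) and C1qb (0.246). Trem2, a microglial lipid receptor, had means of 9.84 in WT and 12.87 in KO neutrophils. It was at 12.53 and 12.90 in WT and KO macrophages and at 14.65 and 14.79 in WT and KO microglia. The order it shares with Mertk, of WT neutrophils below macrophages below microglia, follows from that way of choosing genes. Nearest to Axl were Clec4a3 (0.272), Fyn (0.404) and Tlr9 (0.442), nearest to Gas6 were Npl (0.297), Scoc (0.395) and Eya4 (0.397), and nearest to Pros1 were Pola1 (0.156), Cd72 (0.19) and Tlr3 (0.222). For dim Tyro3 they were Ptpdc1 (0.035), D11Wsu47e (0.036) and Pdzrn4 (0.047), which say little because any flat profile lies near it. Likeness rests on 6 groups, and by Pearson correlation only Ptpdc1 for Tyro3 and Pola1 for Pros1 stayed among the 3 nearest.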

How the data were processed

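RNA of sorted cells was hybridised to Affymetrix Clariom HT mouse arrays, after amplification from 0.6 to 0.8 ng per the labels' protocols. The intensity values were deposited by the authors as 1 table of 22103 transcript clusters on 30 arrays. Per the submitters' processing notes they come from RMA, a method of background correction, normalization and probe summary, whose settings are not given in the sources used here. They are linear, from 5.62 to 438297. Normalization between arrays assumes that most genes have like signal in all arrays, which can shift values where total signal differs.

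Log2 was taken with no pseudocount and no filter. Symbols came from the platform annotation (19508 clusters had 1 symbol, 2595 had none), and coordinates and promoter sequences from RefSeq on GRCm38.p6. With limma 3.58.1 (R 4.3.3), a linear model with a mean for each genotype and cell type was fitted over the 30 arrays, leaving 24 residual degrees of freedom. The threshold for passing was a Benjamini-Hochberg adjusted p under 0.05 over 22103 clusters in each of 12 comparisons, and every adjusted p is limma's. Steps between neighbouring group means were further contrasts of that model, each adjusted in the same way. No slide or scan batch is given. On simulated data, the fit recovered 62% of log2 differences of 1 between KO and WT in neutrophils, 54% in macrophages and 76% in microglia. False calls made up 5.11%, 8.09% and 4.67% of the calls, in that order. The simulated noise was normal, with a single spread per cluster shared by all groups, and only a small part of the clusters was changed. In the data the spread differed by group, the SD of Mertk being 1.09 in WT neutrophils and 0.17 in WT microglia. In the neutrophil comparison 19.9% of clusters passed. The simulated recovery and false calls therefore need not hold there. The figures were drawn with matplotlib 3.10.9 (Python 3.11.15).

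The members, gene lists, comparisons and alternatives were chosen with earlier results of these data known. Named were the 5 members, from each list up to 4 genes with the smallest adjusted p in KO against WT neutrophils and up to 3 in WT macrophages against WT microglia, the 3 genes most like each member, Trem1, and markers that moved with a result. The covariate is the median per array of clusters at a log2 intensity of 11 or more in every macrophage and microglia array and less than 1 apart between the WT means. Since neutrophil arrays did not enter this choice, the covariate cannot tell array-wide signal from expression that macrophages and microglia share. Some listed genes were not measured under a single symbol, and counts are over those measured. Alternatives besides the covariate were array weights, quantile normalization (of all arrays, or by cell type), centring on array medians, a trended variance, a filter of the dimmest 25% of clusters, a single cluster per gene, a fit of just the groups compared, replicate numbers as a block and leaving out single arrays.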

Additional observations from a re-analysis of the deposited data

Results flagged for a closer look

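KO microglia 6 had the lowest Axl level of its group, 8.74, with a gap to the next array of 0.684 of the group's range, beyond Dixon's 95% limit for 6 arrays. It was the only such array among 25 groups of values tested, and chance alone gives about 1 in 20. The change of Mertk with genotype was larger in neutrophils than in macrophages by 3.13 (SE 0.53, limma adjusted p = 0.00192) and larger than in microglia by 3.41 (SE 0.48, limma adjusted p = 0.000157).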

How the results depend on the processing

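The 5 genes and 12 comparisons gave 60 results, 28 of which passed. Over the alternatives other than leaving out an array, passing results kept direction and side in 294 cases, lost the call in 12 and reversed in 0. Those that did not pass stayed so in 321 cases, passed in 4 and changed sign in 17. Causes were not tested.

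The larger moves in the counts of members passing were as follows. KO against WT neutrophils, 4, became 1 with the covariate and 2 with only the arrays compared, and 2 to 4 with an array left out (2 without WT neutrophil 2 or KO neutrophil 1). WT neutrophils against macrophages, 3, became 1 with the covariate. KO neutrophils against macrophages, 1, became 2 with array weights, the covariate or only the arrays compared, and 1 to 2 with an array left out. The difference in change of neutrophils and macrophages, 1, became 0 with the covariate and 1 to 2 with an array left out, and that of neutrophils and microglia, 1, became 2 with array weights and 1 to 3 with an array left out. Smaller moves were losses of a single member. Pros1 was lost between WT neutrophils and macrophages with only the arrays compared, and Mertk between KO neutrophils and microglia with the covariate. Tyro3 was lost between KO microglia and each other KO cell type with centring. It was also lost there with the filter of the dimmest clusters, which removed it.

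Pathway genes passing in KO against WT neutrophils, by the covariate and by only the arrays compared, went from 9 to 3 and 5 for phosphatidylserine receptors, from 5 to 1 and 0 for engulfment, from 3 to 1 and 0 for signalling, from 1 to 0 and 0 for shedding, from 6 to 1 and 3 for nuclear receptors, from 3 to 1 and 0 for phosphatidylserine exposure, and from 1 to 0 and 0 for coagulation. The engulfment and signalling genes that passed with the covariate, Dock2 and Grb2, were not among those that had passed without it. Leaving out each array, chosen after seeing the data, gave 7 to 9, 3 to 5, 1 to 5, 1, 5 to 8, 2 to 4 and 0 to 2 in that order, and 1 to 3 for gamma-carboxylation. Over all clusters, 4390 passed in that comparison, 474 with the covariate, 1084 with only the arrays compared and 2883 to 5557 with an array left out.

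Sign changed only where nothing had passed. With the covariate, Tyro3 was 0.13 in KO against WT neutrophils, -0.337 between WT neutrophils and macrophages and 0.045 in the neutrophil-macrophage difference in change, and Pros1 0.11 between KO neutrophils and macrophages. With quantile normalization over all arrays, Tyro3 was 0.001 and -0.092 in the first 2 of these comparisons, and within cell types KO neutrophils against macrophages gave -0.027 for Mertk and 0.035 for Tyro3. Centring, which moved the median of all clusters by 0.118, gave -0.046 for Mertk in KO against WT macrophages and -0.047 between KO neutrophils and macrophages, -0.049 for Tyro3 and -0.147 for Gas6 between WT neutrophils and macrophages, and 0.003 for Tyro3 between WT macrophages and microglia. Array weights gave -0.67 for Gas6 between WT neutrophils and macrophages and -0.21 for Axl in the macrophage-microglia difference in change. Leaving out an array gave -0.346 to 0.383 for Mertk, -0.012 to 0.255 for Tyro3 and -0.153 to 1.404 for Gas6 in KO against WT macrophages, -0.839 to 0.853 for Gas6 between WT neutrophils and macrophages, -0.103 to 0.217 for Mertk and -0.121 to 0.033 for Tyro3 between KO neutrophils and macrophages, and -0.068 to 0.661 for Mertk and -0.243 to 0.412 for Axl in the macrophage-microglia difference in change.

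After group means were removed, same-numbered arrays correlated at -0.162 to 0.158 across cell types of a genotype and -0.202 to 0.261 between genotypes. Differently numbered arrays were not set beside them, so these values cannot show whether the numbers pair the samples. The labels do not say what the numbers mean. With the replicate block, KO against WT neutrophils gave 3.18 for Mertk, 1.99 for Axl, 1.94 for Gas6 and 1.40 for Pros1 (limma adjusted p 1.68e-05 to 0.0284), and 4340 clusters passed, against 4398 with the block within genotype. That block gave -0.002 for Mertk in KO against WT macrophages, and the replicate block 0.001 for Tyro3 between KO neutrophils and macrophages. Precision is limited by how many arrays each group has.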

Other observations

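Protein S also works in blood coagulation as a cofactor of activated protein C and of tissue factor pathway inhibitor, and 7 of its partners there were measured. Between WT macrophages and WT microglia 2 were higher and 3 lower in macrophages, or 71.4% beside 37.5% of all clusters. F5, coagulation factor V, was 12.6-fold higher in macrophages (10.29 ± 0.87 against 6.63 ± 0.29, limma adjusted p = 2.37e-08) and Thbd, thrombomodulin, which turns thrombin towards activating protein C, was 7.51-fold higher (8.40 ± 0.35 against 5.49 ± 0.12, limma adjusted p = 1.86e-10). Tfpi, tissue factor pathway inhibitor, was 15.2-fold lower (6.92 ± 0.74 against 10.84 ± 0.44, limma adjusted p = 1.64e-09). Microglia thus had the higher levels of Pros1 and Tfpi, and macrophages those of F5 and Thbd.

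In KO neutrophils 1 of the 7 passed (14.3%, below the 19.9% of all clusters), Thbd, at 0.81 above WT (SE 0.24, limma adjusted p = 0.0179), and its call ended without WT neutrophil 3 or 4 and with the covariate (0.63, adjusted p = 0.429). Without WT neutrophil 1 or KO neutrophil 5, 2 genes passed. Tfpi (0.81, adjusted p = 0.11), F2r (-0.36, 0.148) and F5 (-0.78, 0.152) did not pass.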
